A study of Mus musculus with 6 samples.

Results

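The genes described are 9 mouse transcription factor genes of adipocyte commitment: Ebf1, Ebf2, Nfia, Nfib, Zfp423, Zfp467, Tcf7l1, Stat5a and Stat5b. They were picked from 21887 protein-coding genes both for their known roles and because peaks of these libraries lay at them, so counts of peaks at these genes are descriptions and carry no test. A peak was assigned to a gene when its summit, the position of highest enrichment, lay inside the annotated gene or within 50 kb of it. The material was epididymal adipose tissue, labelled as adipocyte, taken 4 weeks after mice received AAV2-Otud3-Flag by intraperitoneal injection. AAV2 is an adeno-associated virus used as a gene carrier, and OTUD3 is a deubiquitinase. Chromatin immunoprecipitation followed by sequencing (ChIP-seq) with an antibody against the Flag tag gave 3 libraries, replicates 1, 3 and 4, and 3 input libraries carried the same numbers. The inputs were not analysed here. The samples include no anti-Flag library from tissue without the Flag construct, so the background of the antibody could not be measured. The promoter of the construct, the cells that took it up, the strain and the age of the mice are not given in the sources used here, nor is it stated whether libraries came from separate animals. The spread between lists may therefore be technical. Peak lists hold no expression values, so the labelled tissue was not checked against marker genes.

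The lists held 11871, 6531 and 13496 distinct peaks in replicates 1, 3 and 4. Read totals are not in the lists. The number of DNA fragments at each summit, recovered from the peak caller's fold and p, had a median of 4, 6 and 5 per peak. All positions are on mouse build mm10, and gene positions are those of RefSeq on GRCm38.p6, the same build.

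White adipocytes arise from mesenchymal precursors in steps. Commitment factors mark the precursors, and they act before or together with the nuclear receptor PPARγ and the C/EBP proteins, which drive the differentiated state. The early B-cell factors EBF1 and EBF2 and the zinc finger proteins ZFP423 and ZFP467 act in commitment. The nuclear factor I proteins NFIA and NFIB bind enhancers of lineage genes. TCF7L1 is a DNA-binding effector of Wnt signalling, which holds back adipogenesis. STAT5A and STAT5B carry signals of growth hormone and prolactin from the membrane to the nucleus.

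Peaks lay at all 9 genes in replicate 1, at 7 in replicate 3 and at 8 in replicate 4. Of all protein-coding genes, 55.4%, 37.2% and 54.4% had a summit in the same window. Most of the 9 are long, and a long gene gathers more peaks. Among the 200 protein-coding genes nearest in length to each member, pooled over the 9 sets, the shares were 71.8%, 54.6% and 76.4%. A summit in every list was found at 7 of the 9 genes, against 17.1% of all genes and 37.6% of genes of like length. The exceptions were Nfib, without a summit in replicates 3 and 4, and Zfp467, without one in replicate 3. Inside the annotated gene alone, 8, 7 and 7 of the 9 had a summit, where 19.5%, 12.7% and 19.3% of all genes and 52.7%, 39.7% and 59.7% of genes of like length did. The 6 genes with a summit inside in every list were Ebf1, Ebf2, Nfia, Zfp423, Tcf7l1 and Stat5b, against 3.8% of all genes and 23.9% of genes of like length. Since the members were chosen for peaks, nothing is read from these shares.

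In all, 53 distinct peaks were assigned, 26, 11 and 16 in replicates 1, 3 and 4, and 41 of them had their summit inside a member. Stat5a and Stat5b are neighbours, separated by 346 bp, so 9 peaks were counted for both, and the 9 genes form 8 loci. Per 100 kb of sequence, the 9 gene bodies held 0.984, 0.570 and 0.570 summits in replicates 1, 3 and 4, and their 50 kb flanks held 0.875, 0 and 0.625. The mean density was 0.708 ± 0.239 inside and 0.50 ± 0.451 in the flanks (SD, n = 3), and the sign of the difference was not the same in every list. Nearest to the 50 kb limit, a summit of replicate 1 lay 49.3 kb from Stat5b on the near side (fold 3.90, 6 fragments), and one of replicate 1 lay 54.5 kb from Stat5a on the far side (fold 2.62, 3 fragments).

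**Figure D1:**
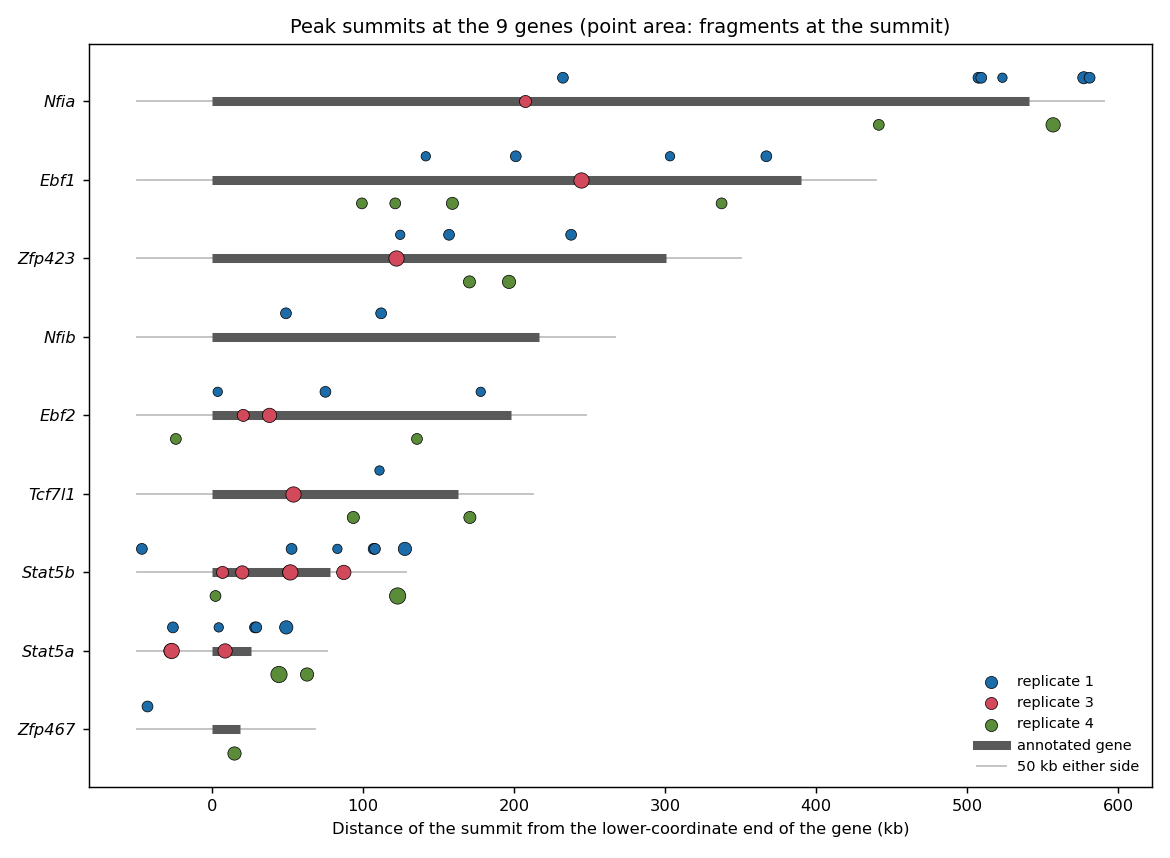
Position of every assigned summit along the 9 genes, longest gene at the top, as distance from the lower-coordinate end of the gene in kb; dark bars are annotated genes, thin lines the 50 kb flanks, and the 3 rows of points per gene are replicates 1, 3 and 4 from top to bottom, with point area in proportion to fragments at the summit. Ebf1 and Zfp423 have all summits inside the gene, Nfib has summits of replicate 1 alone, and summits of different lists stand apart at nearly every gene.

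Ebf1 encodes an early B-cell factor that activates adipogenic genes in precursors and is also a lineage factor of B cells. The gene spans 390 kb (chr11:44618100-45008096, plus strand). It held 4, 1 and 4 summits in replicates 1, 3 and 4, all inside the gene and none in the flanks. They lay from 99.1 to 367 kb into the gene, so none was within 96.9 kb of either of its 2 listed start sites. The highest fold was 3.65, with 8 fragments, at a peak of replicate 3 (chr11:44862270-44862535), and the other 8 peaks had folds of 2.58 to 3.55 from 3 to 5 fragments. The closest approach between lists was 17.4 kb, between a peak of replicate 1 and one of replicate 4. Density was 0.816, 0.204 and 0.816 summits per 100 kb, a mean of 0.612 ± 0.354 (SD, n = 3), where genes of like length had a median of 0.375.

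Ebf2 encodes the family member known for marking brown and beige adipocyte precursors. The gene spans 198 kb (chr14:67233292-67430952). It had 3, 2 and 2 summits, and 6 of the 7 were inside the gene. Its strand and start are not in the promoter table. A peak of replicate 1 lay 3.56 kb from the lower-coordinate end (chr14:67236669-67236913, fold 2.73, 3 fragments), and the only flanking summit, in replicate 4, lay 24.2 kb beyond that end. The strongest of the 7, in replicate 3, reached 3.24 with 7 fragments. Density was 1.01, 0.672 and 0.672 per 100 kb, a mean of 0.784 ± 0.194 (SD, n = 3), the highest among the members outside the Stat5 locus, against a like-length median of 0.442. Of the 200 genes of like length, 13.5% had a higher mean.

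Zfp423 encodes a zinc finger protein that commits precursors to the white adipocyte fate and binds EBF proteins. The gene spans 300.2 kb (chr8:87661810-87962053, minus strand). It had 3, 1 and 2 summits, all inside. The peak of replicate 3 (chr8:87783553-87783889) had a fold of 3.99 from 8 fragments and stood above 94.5% of its list. A peak of replicate 1 with a fold of 2.66 from 3 fragments lay 2.26 kb away from it, the closest approach of 2 lists in this gene. A listed inner start site lay 14.2, 20.7 and 27.7 kb from the nearest summit of replicates 1, 3 and 4. Density was 0.75, 0.25 and 0.50 per 100 kb, against a like-length median of 0.362. The surroundings from 50 kb to 1 Mb had a mean of 0.684 per 100 kb. The gene with its 50 kb flanks had 0.50, and the gene alone had 0.666.

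Zfp467 encodes a zinc finger protein known to favour adipocytes over osteoblasts in marrow stroma. It is the shortest of the 9 at 18.3 kb (chr6:48427692-48445992, minus strand). One summit of replicate 4 lay inside, 3.09 kb downstream of the listed start (chr6:48441842-48442076), with a fold of 3.46 from 6 fragments. The summit of replicate 1 lay in the flank, 43.6 kb from the gene (fold 2.79, 4 fragments), and replicate 3 had none in the window. A summit inside a gene of this length was found in 13.5%, 7% and 14% of like-length genes in replicates 1, 3 and 4. The density of the window was 0.845, 0 and 0.845 per 100 kb, and the mean of 0.564 stood beside a like-length median of 0.564.

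Nfia encodes a nuclear factor I protein known for opening enhancers of the brown fat programme. It is the longest of the 9 at 541 kb (chr4:97578066-98118876, plus strand). It held 4, 1 and 1 summits inside the gene, with 2, 0 and 1 more in the flank beyond its far end. The listed start lay 132.9 kb or more from every summit in every list. Replicate 1 had 3 summits between 17.3 and 33.2 kb before the end of the gene, of which 2 had a fold of 3.55 from 4 fragments and lay next to each other. The highest fold, 3.84 with 5 fragments, lay 36.6 kb past the end of the gene in replicate 1. In replicate 4 the flanking peak had a fold of 3.30 from 7 fragments, 19.98 kb from the nearest peak of replicate 1. Density was 0.936, 0.156 and 0.312 per 100 kb, and the mean of 0.468 ± 0.413 (SD, n = 3) stood beside a like-length median of 0.324.

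Nfib encodes the related factor NFIB and lies elsewhere on the same chromosome, spanning 217 kb (chr4:82290173-82506751). It had 2 summits, both inside the gene and both in replicate 1. Their folds were 3.32 (chr4:82338844-82339088) and 3.55 (chr4:82401798-82402358), each from 4 fragments. No other list had a peak within 324 kb of either. Nfib thus had the lowest density of the 9, at 0.632, 0 and 0 per 100 kb, and 84% of genes of like length had a higher mean. Among these, 58.5% and 84% had a summit in the window in replicates 3 and 4, where Nfib had none.

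Tcf7l1 encodes a Wnt pathway factor that mostly represses its targets. The gene spans 163 kb (chr6:72626371-72789045, minus strand). Each list had exactly 1 summit inside, and replicate 4 had another 7.95 kb upstream of the listed start (chr6:72796846-72797205, fold 2.47, 5 fragments). The peak of replicate 3 (chr6:72679788-72680140) had a fold of 4.03 from 8 fragments and stood above 95.3% of its list. Those inside in replicates 1 and 4 had folds of 2.84 and 2.92 and lay 16.5 kb from each other. Density was 0.381, 0.381 and 0.761 per 100 kb, and the mean of 0.508 was 1.02 times the like-length median of 0.498.

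Stat5b and Stat5a had the highest densities of the 9 genes. Stat5b spans 78.3 kb (chr11:100780731-100859004, minus strand) and Stat5a spans 25.8 kb (chr11:100859351-100885169, plus strand). Stat5a had 3.97, 2.38 and 1.59 summits per 100 kb in replicates 1, 3 and 4, a mean of 2.65 ± 1.21 (SD, n = 3). Stat5b had 3.37, 2.80 and 1.12, a mean of 2.43 ± 1.17 (SD, n = 3). Every list was above the like-length medians of 0.530 and 0.558 for the mean over lists. Of 200 genes of like length, 1% had a higher mean than Stat5a and 0% a higher mean than Stat5b. These 2 values largely rest on the same peaks, and the genes were chosen with such values in view. The surroundings were also denser here than at the other members. From 50 kb to 1 Mb around Stat5a the mean density was 0.965 per 100 kb, and it was 0.298 to 0.684 around the 7 genes of the other loci. Relative to these surroundings the mean density of Stat5a was 2.75 times as high and that of Stat5b 2.66 times, and the part of the surroundings in the result was not tested.

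The joint window of 204 kb held 14 distinct summits: 6, 5 and 3 in replicates 1, 3 and 4. Of these, 6 were inside Stat5b, 2 inside Stat5a, 5 inside Stat3 and 1 inside Rab5c. Stat3, the gene of another signal transducer of cytokines and leptin, is the next gene beyond Stat5a, and Rab5c encodes an endosomal GTPase. In the body of Stat5b, replicate 3 had 2 neighbouring peaks (chr11:100831780-100832094, fold 3.68, 7 fragments, and chr11:100832257-100832538, fold 4.14, 8 fragments). A peak of replicate 1 (chr11:100832856-100833327, fold 3.55, 4 fragments) lay 317 bp from the latter, and replicate 4 had none there. This was the closest approach of 2 lists at any of the 9 genes. Over whole lists, 1.98% of peaks of replicate 1 and 2.73% of those of replicate 3 had a peak of another list within 500 bp. The 2 other peaks of replicate 3 in Stat5b had folds of 2.56 and 2.81, and that of replicate 4 had a fold of 2.70 from 4 fragments, 2.09 kb from the gene's lower end. Inside Stat5a, replicate 1 had a fold of 2.84 from 3 fragments, 3.097 kb downstream of a listed start. Replicate 3 had a fold of 3.48 from 7 fragments, 3.96 kb from that peak, and replicate 4 had none.

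**Figure D2:**
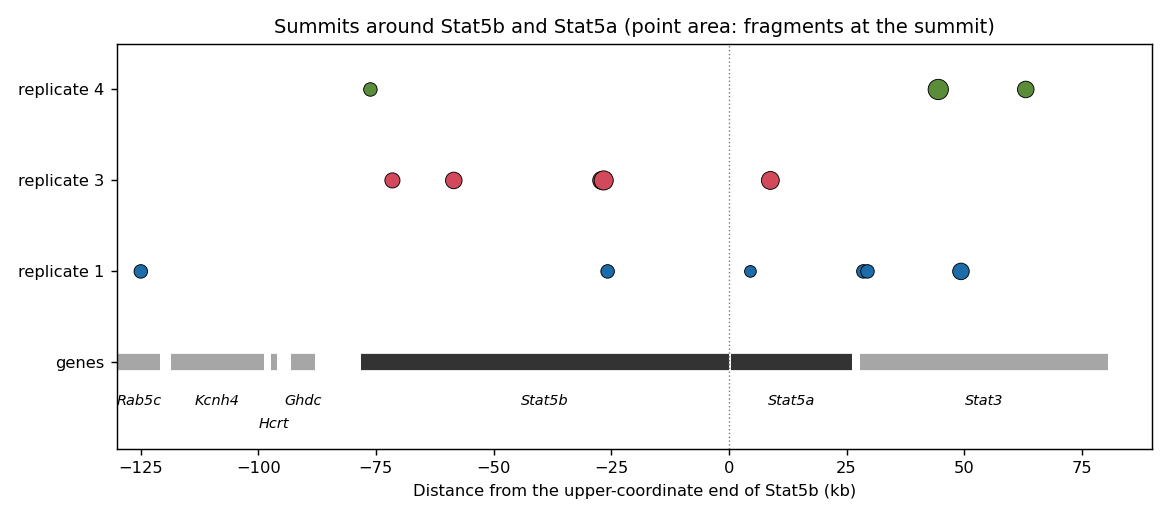
Summits of each list around Stat5b and Stat5a, as distance in kb from the upper-coordinate end of Stat5b (dotted line); bars are protein-coding genes, dark for the 2 Stat5 genes, and point area is in proportion to fragments at the summit. Replicates 1 and 3 have summits close together inside Stat5b and inside Stat5a, while the summits of replicate 4 with 9 and 6 fragments lie in Stat3.

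The only peak of the 53 with a q below 0.05 lay in Stat3. It belonged to replicate 4 (chr11:100903327-100903655), reached a fold of 4.90 with 9 fragments (caller's q = 0.0319) and stood above 99.8% of its list. Its summit was 18.3 kb beyond the end of Stat5a. Replicate 1 had a peak 4.54 kb away from it, with a fold of 3.90 from 6 fragments (caller's q = 0.342), and replicate 3 had none inside Stat3. Over whole lists, 0.337%, 0.398% and 0.496% of peaks in replicates 1, 3 and 4 had a q below 0.05. Nothing is read from a single such peak at these genes.

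Stat5a and Stat5b are paralogues, and a promoter of each held a stretch of like sequence, printed here because the 2 genes had the densest peaks. Both are from RefSeq on GRCm38.p6, from 250 bases before to 50 after the listed start, 5′ to 3′. Every listed Stat5a promoter was aligned with every listed Stat5b promoter, and the pair with the highest alignment score is shown (56, against 11, 15 and 19). Capitals mark the stretch that aligned between them, with 83 identical bases in 104 aligned columns (79.8%).
Stat5a chr11:100860234-100860533, plus strand: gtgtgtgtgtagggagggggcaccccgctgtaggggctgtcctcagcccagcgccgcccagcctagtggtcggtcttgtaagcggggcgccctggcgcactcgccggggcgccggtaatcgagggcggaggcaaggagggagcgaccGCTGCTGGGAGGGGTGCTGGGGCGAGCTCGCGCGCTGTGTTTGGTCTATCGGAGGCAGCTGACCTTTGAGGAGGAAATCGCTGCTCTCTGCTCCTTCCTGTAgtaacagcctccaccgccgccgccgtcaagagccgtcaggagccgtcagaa
Stat5b chr11:100822521-100822820, minus strand: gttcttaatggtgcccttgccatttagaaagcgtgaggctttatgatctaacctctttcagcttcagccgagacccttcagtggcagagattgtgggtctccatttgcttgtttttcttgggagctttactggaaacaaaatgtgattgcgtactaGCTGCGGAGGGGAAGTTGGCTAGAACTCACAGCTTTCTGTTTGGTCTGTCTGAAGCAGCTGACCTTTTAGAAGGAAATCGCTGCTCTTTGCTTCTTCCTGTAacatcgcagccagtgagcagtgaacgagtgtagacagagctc
The neighbouring pair of replicate 3 peaks and the replicate 1 peak inside Stat5b had summits 9.39 to 10.7 kb upstream of the start of this Stat5b promoter, between it and the outer listed start. The other 2 replicate 3 peaks inside Stat5b lay 22.0 and 35.1 kb from it, on its downstream side. No peak of any list overlapped either sequence.

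No peak touched a promoter of the members. The table holds 11 promoters for 7 of the 9 genes and none for Ebf2 and Nfib. Each of the 11 had 0 overlapping peaks in every list, where 0.542%, 0.11% and 0.229% of all 32817 promoters had one in replicates 1, 3 and 4. The G and C content of the 11 ran from 36.7% at an Ebf1 start to 82.7% at the outer Stat5b start, against a median of 52.7% over all promoters. Motifs of the members' own families were searched on both strands. The EBF motif (TCCC and GGGA with 2 bases between), the NFI site (TTGGC and GCCAA with 5 bases between), the NFI half-site TTGGCA, which can lie inside a full site, and the STAT motif TTCNNNGAA matched in 0 of the 11. Of all promoters, 0.905%, 0.0366%, 14.1% and 8.29% held them, in that order. The TCF motif CTTTGAT matched in 1 of the 11, that of Nfia, and in 3.73% of all promoters. It is shown in capitals, 205 bases before the listed start.
Nfia chr4:97581693-97581992, plus strand: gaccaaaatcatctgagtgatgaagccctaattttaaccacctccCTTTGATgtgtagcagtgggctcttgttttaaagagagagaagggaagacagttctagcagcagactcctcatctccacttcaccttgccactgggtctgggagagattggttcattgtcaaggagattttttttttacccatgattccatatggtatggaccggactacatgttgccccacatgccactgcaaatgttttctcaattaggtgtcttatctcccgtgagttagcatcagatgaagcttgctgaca
The nearest summits to this start were 152, 203 and 133 kb away in replicates 1, 3 and 4.

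**Figure D3:**
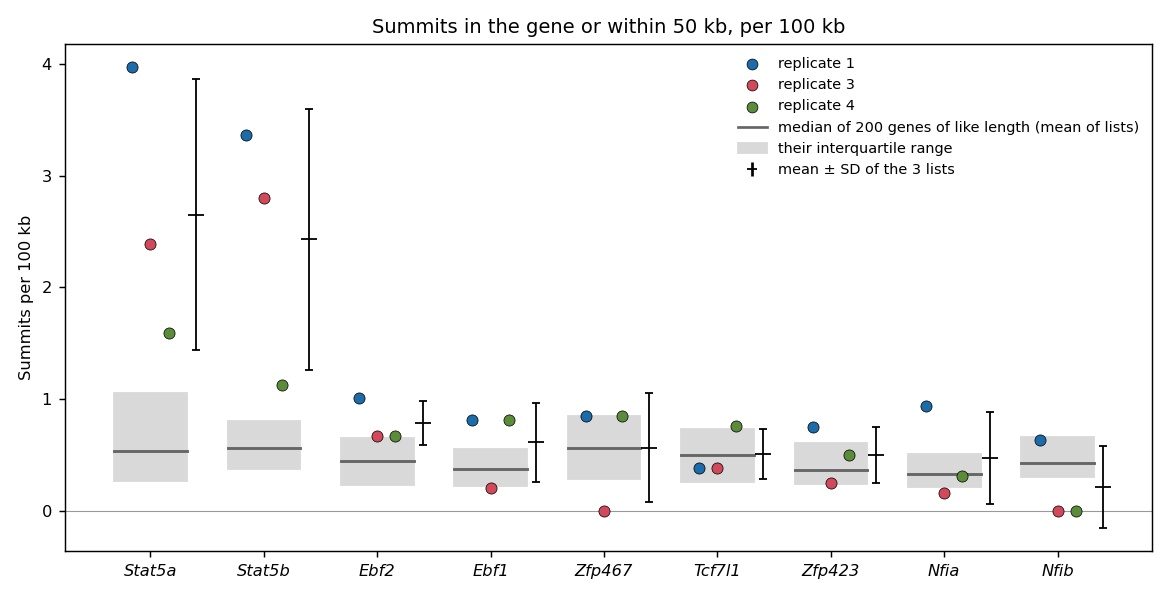
Summits per 100 kb of the gene with 50 kb either side, by list (points), with the mean ± SD of the 3 lists (bars at the right of each gene) and the median and interquartile range of the mean over lists in 200 genes of like length (grey). Stat5a and Stat5b stand at 1.12 to 3.97 in every list, the means of the other 7 run from 0.211 to 0.784, and Nfib is at 0 in replicates 3 and 4.

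In order of mean density, Stat5a and Stat5b were followed by Ebf2 (0.784), Ebf1 (0.612), Zfp467 (0.564), Tcf7l1 (0.508), Zfp423 (0.50), Nfia (0.468) and Nfib (0.211). Each step between neighbours in this order was smaller than the SD over lists of both neighbours, except the step from Stat5b down to Ebf2, which was larger than both SDs. The ratio to the like-length median ran from 0.493 at Nfib to 4.99 at Stat5a, with a median of 1.44 over the 9 genes. Taken list by list against the like-length mean, the median ratio was 1.995, 0.857 and 1.10 in replicates 1, 3 and 4. It was above 1 in 2 of 3 lists and varied by an SD of 0.599. The genes most like Stat5a in its 3 densities, among the 200 of its length, were Slc12a9 (3.98, 0.797 and 2.39 summits per 100 kb), Calcoco2 (4.78, 0.796 and 1.59) and Ulk1 (3.18, 1.59 and 3.18). Their Euclidean distances to Stat5a were 1.78, 1.78 and 1.95 summits per 100 kb over the 3 lists.

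No region at the 9 genes was shared between lists. Of the 53 peaks, 0 overlapped a peak of another list by at least 1 bp, and a count of 0 in 53 allows a share of up to 5.66%, a limit for counting error only. Over the whole lists, 0.901%, 1.35% and 0.763% of peaks in replicates 1, 3 and 4 overlapped another list, which the number of peaks at these genes is too small to tell from 0. The median gap from a member's peak to the nearest peak of another list was 27.2, 16.7 and 23.7 kb in replicates 1, 3 and 4, and it was 33.6, 27.1 and 42.7 kb over all peaks of those lists. The members were chosen for peaks in these lists, which favours short gaps, so nothing is read from this difference.

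The peaks at these genes were weak, as most peaks of the lists were. Fold and p are the authors' values and are described within each list alone. In replicate 1 the 26 peaks had folds of 2.66 to 3.90 with a median of 3.24, where the list had 3.20, and 13 of the 26 were above the list's median. The 11 peaks of replicate 3 ran from 2.56 to 4.14 with a median of 3.48 against 2.998, and 7 were above it. The 16 peaks of replicate 4 ran from 2.47 to 4.90 with a median of 2.82 against 3.02, and 7 were above it. At least 75% of the list had a lower fold for 2, 6 and 4 of these peaks. Summits rested on 3 to 6 fragments in replicate 1, 5 to 8 in replicate 3 and 4 to 9 in replicate 4. Of the 53, 31 had 4 or fewer: 24, 0 and 7 in replicates 1, 3 and 4, whose lists had medians of 4, 6 and 5. The caller's q was above 0.5 for 47 of the 53. The median −log10 q of the whole lists was 0.187, 0.022 and 0.058, so the median peak of each list also had a q above 0.5. With so few fragments, enrichment at a single one of these sites was mostly not distinguishable from the background at this depth.

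**Figure D4:**
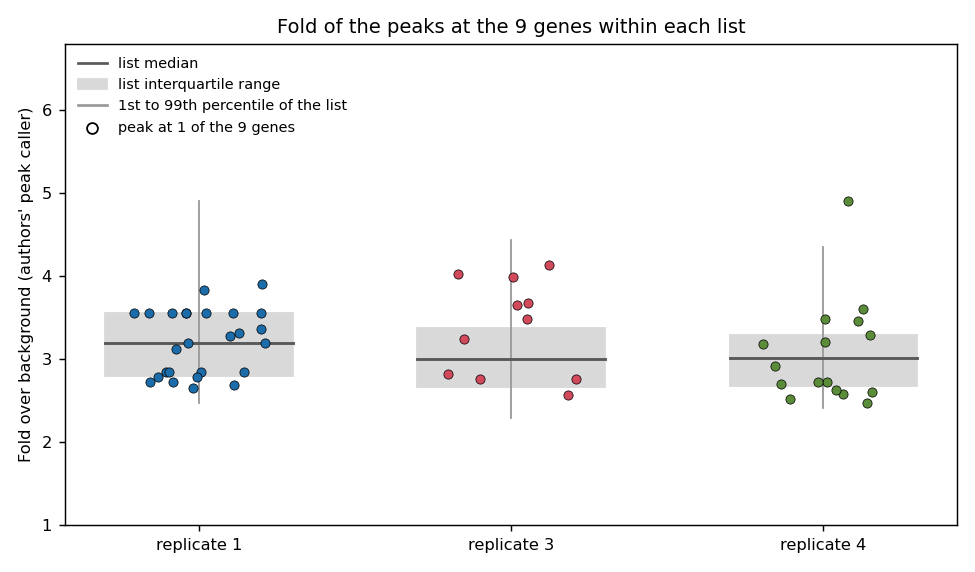
Fold over background of the peaks at the 9 genes (points, spread sideways for visibility) in each list, with the list's median, interquartile range and 1st to 99th percentile in grey. The points lie within the 1st to 99th percentile of each list, apart from the peak in Stat3 at 4.90 in replicate 4, and the medians of the points are 3.24, 3.48 and 2.82.

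Peaks also lay at relatives of the 9 genes. This list of 12 genes holds other EBF, NFI, TCF/LEF and STAT genes and Zfp521, an antagonist of ZFP423 and EBF1. A summit in the gene or within 50 kb was found at 11, 4 and 11 of the 12 (91.7%, 33.3% and 91.7%) in replicates 1, 3 and 4. Nfix, Tcf7l2 and Stat3 were the 3 with one in every list. Among all protein-coding genes the shares were 55.4%, 37.2% and 54.4%, and 17.1% in every list, so replicate 3 was near its share. These differences were not tested, and nothing is read from them. The median of their mean densities was 0.646 per 100 kb, against 0.564 for the 9 members and 0.514 for all protein-coding genes. Inside the gene alone, 6, 1 and 7 of the 12 (50%, 8.33% and 58.3%) had a summit, where 19.5%, 12.7% and 19.3% of all genes did. These counts depend on gene length, which ran from 18.0 kb at Stat6 to 286 kb at Zfp521. Shares among genes of like length were not computed for this list. Tcf7l2, a Wnt effector, was the 1 with a summit inside in every list (1, 3 and 2), against 3.8% of all genes. It spans 192 kb. Among the 200 genes of like length to Ebf2 (184 to 215 kb), 59%, 41.5% and 66.5% had a summit inside, list by list. Among the STAT genes, Stat3 had 7, 1 and 3 summits in its window, which overlaps that of the Stat5 pair. Stat2 had 1, 0 and 1, Stat4 had 2, 0 and 2, and Stat6, which carries interleukin-4 signals, had 3, 0 and 1. Among the NFI genes, Nfix had 4, 2 and 2, all outside the gene, and Nfic had 6, 0 and 2. Ebf3 and Ebf4 each had 2, 0 and 2. Zfp521 had 1, 0 and 2, all inside its 286 kb. Lef1 had 0, 0 and 3, and Tcf7 had 1, 1 and 0.

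Other genes of adipocyte commitment were counted in the same way. The list of 30 holds PPARγ and C/EBP genes, BMP and growth hormone signalling genes and precursor markers. Of these, 22, 12 and 19 (73.3%, 40% and 63.3%) had a summit in the window in replicates 1, 3 and 4, and 6 in every list. Among all protein-coding genes the shares were 55.4%, 37.2% and 54.4%, and 17.1% in every list. The differences were not tested, and nothing is read from them. The median of their mean densities was 0.606 per 100 kb. The 5 densest of the 6 were Cebpb, an early inducer of differentiation, with 5, 3 and 1 summits, Wnt10b, an inhibitory Wnt ligand, with 1, 2 and 2, Pdgfra, a receptor of precursors, with 1, 1 and 2, Bmpr1a, a BMP receptor, with 2, 1 and 2, and Pparg with 2, 1 and 2. The mean density of Cebpb, 2.96 ± 1.97 per 100 kb (SD, n = 3), was above that of Stat5a, the densest member (2.65 ± 1.21). The summits of Cebpb and Wnt10b were all outside the gene, those of Pdgfra all inside, and Pparg had 1 inside, in replicate 3. The counts depend on gene length, which ran from 1.52 kb at Cebpb to 321 kb at Prdm16 in this list.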

How the data were processed

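ChIP-seq with an anti-Flag antibody was deposited as 3 narrowPeak lists, 1 for each of 3 libraries, not pooled. Reads of 75 bp were handled with fastp 0.19.11, BWA 0.7.12 and MACS2 2.1.0 on mm10, per the submitters' processing notes. The sources used here do not say whether the inputs entered peak calling. Each deposited peak has a fold (a ratio of summit to background), a −log10 p-value, a −log10 q-value, a summit offset and an integer score, all from the authors' peak caller. The deposited score is the integer part of 10 times the −log10 p and was not used.

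Rows of the same interval were reduced to the row with the lowest p. Fragments n at a summit solve fold = (n + 1)/(background + 1) with a Poisson tail, and 100% of peaks matched a whole n within 0.001 on the log10 scale. Summits were counted per gene with Python 3.11.15, numpy 2.4.6 and pandas 2.3.3 on 21887 RefSeq protein-coding genes of chromosomes 1 to 19, X and Y. Genes of like length were 100 shorter and 100 longer where these exist, the 9 members left out. Promoters were aligned with Biopython 1.88. The procedures were tested on simulated data.

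The members and lists were chosen with earlier results of these data known, and no test was run. All 9 members and the relatives are named, except that 1 gene of the list of relatives is not reported here and entered none of its counts. Other commitment genes are named when found in every list, at most 5 by mean density, and genes most like the densest member are the 3 with the smallest Euclidean distance. The alternatives tried were other windows, filters on fold, p and q, placement by interval, every summit row, other reference sets, other overlap rules and leaving out each replicate.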

Additional observations from a re-analysis of the deposited data

How the results depend on the processing

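Of 65 values recomputed under alternatives, 59 stayed close to the reported one and 6 moved. Close meant a count within 1.5 times, or a density ratio within 0.599. This limit is the SD of the list-by-list ratios to the like-length mean, not of the reported ratio to the median. No density ratio moved by this wide limit, although leaving out replicate 1 brought the ratio to 1.04. Some of the 59 could not have moved, as described below. Requiring a q below 0.05 left 0, 0 and 2 of the 9 genes with a summit in replicates 1, 3 and 4, and 0 in every list, and the 2 were Stat5a and Stat5b through the same peak in Stat3. With a fold of at least 3, 4 of the 9 genes instead of 7 had a summit in every list. Both filters leave fewer peaks by construction. With peaks of different lists joined within 500 bp, 1 shared region appeared, the one inside Stat5b. Under every other alternative run the number of shared regions stayed 0. Runs with fewer peaks, a narrower window, fewer lists or a stricter overlap rule could only return 0, so they do not bear on stability.

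Leaving out each replicate gave 7 to 8 genes with a summit in every remaining list. With a list fewer to meet, this count could not fall below the 7 found with all lists. The density ratio of 1.44 ranged from 1.04 (without replicate 1) to 1.67 (without replicate 4), and over all other alternatives from 1.21 (against the surroundings to 1 Mb) to 1.85 (gene body alone, 7 genes with a defined ratio). Against the mean of like-length genes it was 1.29, and without Stat5a and Stat5b it was 1.38, with 5 genes found in every list; both settings were chosen after seeing the data. The ratio has no value at a q below 0.05, where the like-length medians are 0. No paired analysis was possible because the input libraries that share the replicate numbers were not analysed here, so the anti-Flag lists had no second group to pair with. The low fragment numbers limit each single peak, and read totals, which would set the depth of each list, are not in the lists.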
